A study of Mus musculus with 11 samples.

Results

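The sites described here are 3943 stretches of the mouse genome that were occupied by OTX2 and POU3F1 and by none of the other TFs profiled in epiblast stem cells (EpiSCs). A site is an OTX2 ChIP-seq peak of EpiSCs on chromosomes 1 to 19 or X that overlapped a POU3F1 peak of EpiSCs by at least 1 bp and met no ZIC2, SOX2 or POU5F1 peak of EpiSCs. The sites were thus chosen by the positions of the 5 EpiSC peak lists. They comprise 3.82% of the 103109 OTX2 peaks on these chromosomes, and 54.2% of the 7276 OTX2 peaks that met a POU3F1 peak. The remaining OTX2 peaks with POU3F1 met POU5F1 in 32.1% of the 7276 cases, SOX2 in 17.6% and ZIC2 in 6.36%.

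The data are peak lists of the 5 TFs from 2 cultures of 129/Sv EpiSCs, each TF having been profiled once per culture. EpiSCs were grown without feeder cells in medium to which activin (20 ng/ml) and Fgf2 (10 ng/ml) were added, and the activin-free culture had no activin for the final 18 h. In both cultures each TF was expressed from a pCAGGS vector by transient transfection together with the biotin ligase BirA. The TF carried the BLRP tag and its chromatin was collected on streptavidin, so the peaks are those of the exogenous TF in a cell population that also had the endogenous one. Every list gives peak positions on mm9 together with the MACS score, minus 10 times the log10 of the p-value, with 50 as the lowest in any list. Reads are not part of the lists, and therefore library depth is unknown and scores of different lists are not on a common scale. As there was 1 library per group, no difference between cultures or TFs was tested. The range in parentheses after a share is its 95% Wilson interval and accounts for the number of sites counted and no other error, and a difference between 2 sets of sites of the same libraries is described by these intervals.

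OTX2 is a homeodomain protein of the paired-like type, which recognizes GGATTA and related sequences, and which acts in the epiblast and later in the forebrain and midbrain. POU3F1 (also known as OCT6) is a class III POU protein, whose POU-specific domain and homeodomain bind to the octamer ATGCAAAT and to AT-rich variants of it. POU3F1 is present in the epiblast and in early neural progenitors, in addition to its well-known role in Schwann cells.

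The OTX2 and octamer motifs were present together at only a few sites, and 4 of these are shown because they carry both sequences within 100 bp of the centre of the overlap. Capitals mark GGATTA or its complement TAATCC and the octamer (ATGCAAAT or ATGCATAT, or the complement of either). All but the last were chosen by score among the sites with both motifs where both TFs also had peaks in the activin-free culture. The last was chosen among those where neither TF had. The Elp4 site had an OTX2 score of 319 and a POU3F1 score of 1310 in EpiSCs, the Magi2 site 145 and 2583, the 2610203C20Rik site 121 and 392, and the Macc1 site 51.9 and 805. Each is shown on the plus strand of mm9.
Elp4 intron, chr2:105673974-105674173: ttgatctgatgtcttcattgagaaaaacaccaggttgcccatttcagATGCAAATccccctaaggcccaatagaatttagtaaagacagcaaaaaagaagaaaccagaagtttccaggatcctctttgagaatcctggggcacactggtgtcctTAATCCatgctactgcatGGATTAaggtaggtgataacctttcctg
Magi2 intron, chr5:19259140-19259339: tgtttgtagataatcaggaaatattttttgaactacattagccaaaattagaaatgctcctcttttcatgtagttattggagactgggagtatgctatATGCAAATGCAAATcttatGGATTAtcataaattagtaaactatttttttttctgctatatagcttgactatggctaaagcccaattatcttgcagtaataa
2610203C20Rik intron, chr9:41393118-41393317: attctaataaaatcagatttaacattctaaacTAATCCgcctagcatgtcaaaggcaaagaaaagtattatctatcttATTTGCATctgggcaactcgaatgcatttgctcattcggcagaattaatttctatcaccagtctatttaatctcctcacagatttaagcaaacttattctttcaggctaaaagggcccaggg
between genes, nearest Macc1, chr12:120715716-120715915: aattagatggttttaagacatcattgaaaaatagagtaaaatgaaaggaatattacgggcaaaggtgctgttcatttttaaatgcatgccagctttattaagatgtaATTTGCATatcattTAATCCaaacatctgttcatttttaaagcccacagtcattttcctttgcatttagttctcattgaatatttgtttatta

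Some of the sites lay in copies of one repeated sequence. The part that the copies have in common is shown from the site at chr17, followed by 3 stretches of the copy with the highest rank among those that hold all 3 motifs, on chromosome 10. Capitals mark the motifs as above.
stretch shared by the copies, plus strand, chr17:18092743-18093042: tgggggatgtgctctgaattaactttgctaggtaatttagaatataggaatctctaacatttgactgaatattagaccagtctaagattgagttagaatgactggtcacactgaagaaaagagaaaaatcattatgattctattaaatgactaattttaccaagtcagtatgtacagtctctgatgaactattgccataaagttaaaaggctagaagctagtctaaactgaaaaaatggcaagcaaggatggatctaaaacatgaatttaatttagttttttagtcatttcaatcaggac
octamer on one side, minus strand, chr10:30019728-30019827: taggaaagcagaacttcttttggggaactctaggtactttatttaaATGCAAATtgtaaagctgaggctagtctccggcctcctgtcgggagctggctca
GGATTA on the other side, minus strand, chr10:30018939-30019038: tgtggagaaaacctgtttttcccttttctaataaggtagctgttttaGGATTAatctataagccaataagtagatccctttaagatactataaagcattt
octamer beyond GGATTA, minus strand, chr10:30018563-30018662: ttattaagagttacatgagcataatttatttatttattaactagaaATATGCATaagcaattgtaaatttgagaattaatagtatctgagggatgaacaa

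The OTX2 peaks of the sites had ordinary scores, and the POU3F1 peaks had scores somewhat above the median of all POU3F1 peaks. These values chose the sites and are given as a description. The OTX2 score ranged from 50.01 to 981 with a median of 93.9, which compares with 95.2 in 70797 OTX2 peaks that met no other TF and with 99.2 in all OTX2 peaks. The POU3F1 score ranged from 50.03 to 3143 with a median of 215, and the median was 193 in all POU3F1 peaks and 152 in 69806 POU3F1 peaks that met no other TF. In 73.7% of the sites the POU3F1 score was above the OTX2 score. Over the 3943 sites, Spearman's rho of both scores was −0.0525. The scores of both TFs thus had no common order, as the plot of scores shows. The 3943 sites involved 3828 POU3F1 peaks, 114 of which met at least 2 sites.

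OTX2 and POU3F1 peaks of a site overlapped to a varying extent, with their midpoints often apart. In median 65.4% of the OTX2 peak was shared, with quartiles of 34.4 and 94.9%. The midpoints were 450 bp apart in median, with quartiles of 180.5 and 762 bp, and the OTX2 peaks were 803 bp wide and the POU3F1 peaks 1093 bp wide in median. Midpoints were within 100 bp in 14.6% (13.5 to 15.7%) of the sites, compared with 19.6% (18.5 to 20.7%) of 4947 OTX2 peaks that met SOX2 only. In 1986 OTX2 peaks that met POU5F1 only the share was 8.66% (7.50 to 9.98%), and in 16105 that met ZIC2 only it was 9.93% (9.48 to 10.4%). Midpoints over 500 bp apart were found in 45.6% (44.1 to 47.2%) of the sites and in 28.9% (27.6 to 30.1%) of the peaks with SOX2 only, whose SOX2 peaks were narrower (744 bp). With POU5F1 only and ZIC2 only the shares were higher than at the sites, 51.9% (49.7 to 54.1%) and 52.5% (51.8 to 53.3%), respectively. The OTX2 peak was wholly inside the POU3F1 peak at 857 sites.

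The boundary of the rule cut through a continuum of distances. At 347 sites fewer than 100 bp were shared, and 357 OTX2 peaks that met no TF had a POU3F1 peak within 100 bp. At chr2:160689980-160691033, just inside, an OTX2 peak of score 65.6 shared 1 bp with a POU3F1 peak of score 82.0. Just outside, at chrX:91348037-91349560, the OTX2 and POU3F1 peaks had scores of 149 and 227 and adjoined without a shared base. As to the TFs that the rule excludes, a POU5F1 peak lay within 1000 bp of 584 sites, a SOX2 peak of 403 and a ZIC2 peak of 160. For a total of 1035 sites at least 1 of these TFs was that close.

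**Figure D1:**
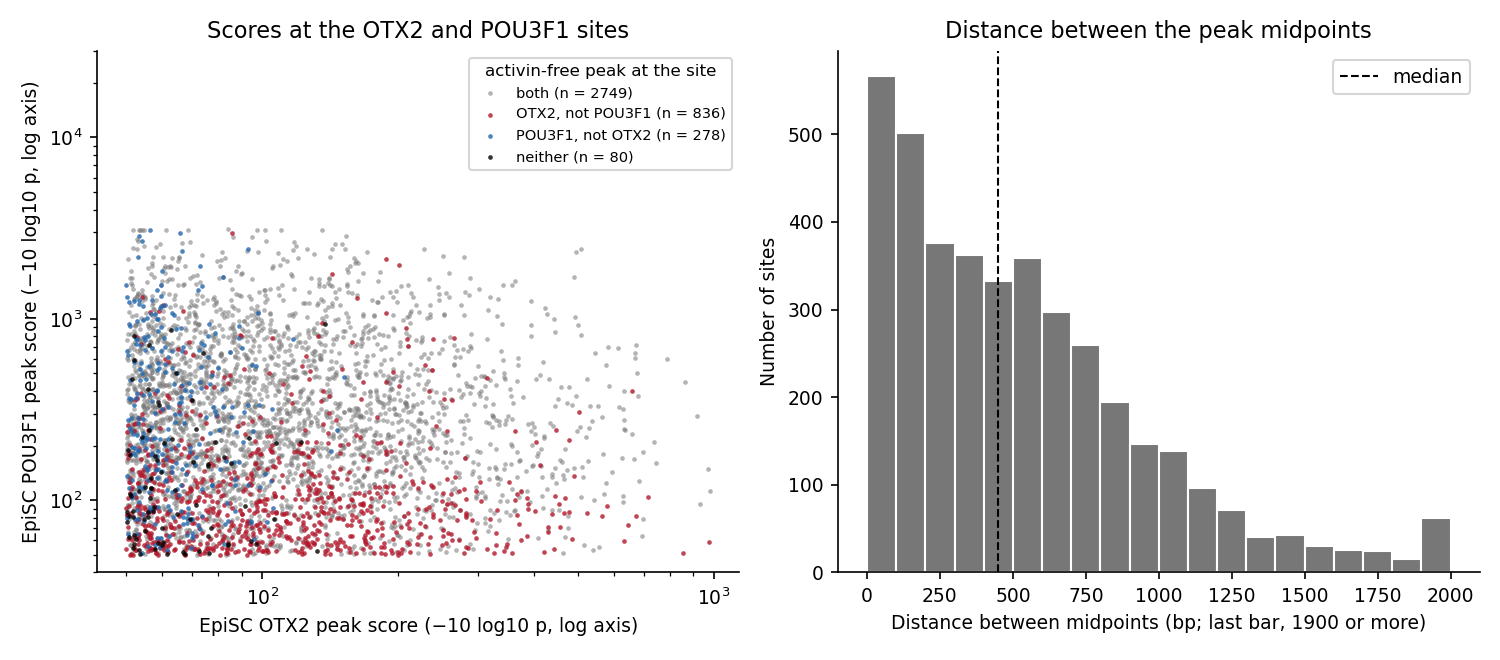
Left, each point is a site, with the score of its EpiSC OTX2 peak on the x axis and that of its EpiSC POU3F1 peak on the y axis (minus 10 times log10 p, log axes), colored by the activin-free peaks at the site. Sites with activin-free OTX2 but not POU3F1 (836) lie low on the y axis, and those with POU3F1 but not OTX2 (278) lie to the left. Right, number of sites by the distance between midpoints in bins of 100 bp, with the median of 450 bp dashed.

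Whether the sites were found again was examined in the activin-free lists, which the rule did not use. An OTX2 peak was present at 3585 of the 3943 sites (90.9%, 89.98 to 91.8%), against 78.1% of all OTX2 peaks. The share was 77.96% (77.7 to 78.3%) in OTX2 peaks that met no other TF and 88.5% (87.5 to 89.3%) in those with SOX2 only. A gap remained at equal scores. With an OTX2 score of 50 to 75 in EpiSCs, 80.2% (78.02 to 82.2%) of 1413 sites had an activin-free OTX2 peak, and this was the case for 56.2% (55.6 to 56.8%) of OTX2 peaks without another TF and 69.4% (66.9 to 71.8%) of those with SOX2 only. With a score of 100 to 150 the shares were 98.3% (97.1 to 99.0%), 89.4% (88.9 to 89.9%) and 95.9% (94.5 to 97.0%), respectively. From 250 upwards, all 401 sites had the peak, and so had 99.9% of both other sets.

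OTX2 peaks in AT-rich DNA were generally found again more often, and GC content was lower at the sites (see the account of sequence). Within the same range of GC content around the OTX2 midpoint, the sites remained higher than OTX2 peaks without another TF, but not in every range higher than those with SOX2 only. Among peaks of score 50 to 75 with GC content under 36%, an activin-free OTX2 peak was present at 90.3% (86.6 to 93.1%) of 330 sites and at 80% (77.9 to 81.97%) of 1465 OTX2 peaks without another TF, and at 81.8% (74.7 to 87.3%) of 143 with SOX2 only. At a GC content of 36 to 40% the shares were 79.8% (75.9 to 83.2%), 71.9% (70.5 to 73.3%) and 78.5% (73.9 to 82.4%), and over all scores in this range the sites had 90.6% (88.8 to 92.1%) and the peaks with SOX2 only 91.4% (89.7 to 92.8%). At 44% or more with scores of 50 to 75 they were 70.1% (64.4 to 75.3%), 44.7% (43.8 to 45.6%) and 58.4% (53.5 to 63.1%).

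The OTX2 score at the sites was also higher in the activin-free list. Where an activin-free OTX2 peak was present, the median score was 99.9 in EpiSCs and 218 in the activin-free culture, and 3226 of 3585 sites had the higher score there. The median log2 ratio of activin-free to EpiSC score was 0.93 (quartiles 0.45 and 1.45), and it was 0.43 (−0.06 and 0.95) in OTX2 peaks without another TF and 0.66 (0.17 and 1.17) in those with SOX2 only. These ratios include any difference in depth and score scale between the lists, and the sets also differed in GC content and in EpiSC score (medians 99.9, 111.6 and 124.3), whose part in the ratios was not tested.

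For POU3F1 the share of sites was lower than for OTX2, although this order depended on the overlap required, being 74.1% for POU3F1 and 72.6% for OTX2 when 50% of both peaks had to be shared. With 1 bp, an activin-free POU3F1 peak met 3027 sites (76.8%, 75.4 to 78.1%), against 7.17% of all OTX2 peaks. As the sites were chosen for a POU3F1 peak and most OTX2 peaks had none, these shares are not compared. Counted over the 3828 POU3F1 peaks of the sites, 80.3% (79.0 to 81.5%) were found again, which is near the 79.1% (78.8 to 79.4%) of POU3F1 peaks without another TF. At equal scores under 250, however, a smaller share of the peaks of the sites was found again. With a POU3F1 score of 50 to 75, the shares were 37.1% (33.0 to 41.3%) of 518 and 46.1% (45.3 to 47.0%) of 13543, and with a score of 100 to 150 they were 70.5% (66.6 to 74.2%) of 543 and 77.5% (76.8 to 78.3%) of 12091. From 250 upwards, 99.1% and 99.5% were found. The median log2 ratio of activin-free to EpiSC score was 0.04 (−0.50 and 0.51) at the sites and 0.17 (−0.37 and 0.73) in POU3F1 peaks without another TF.

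**Figure D2:**
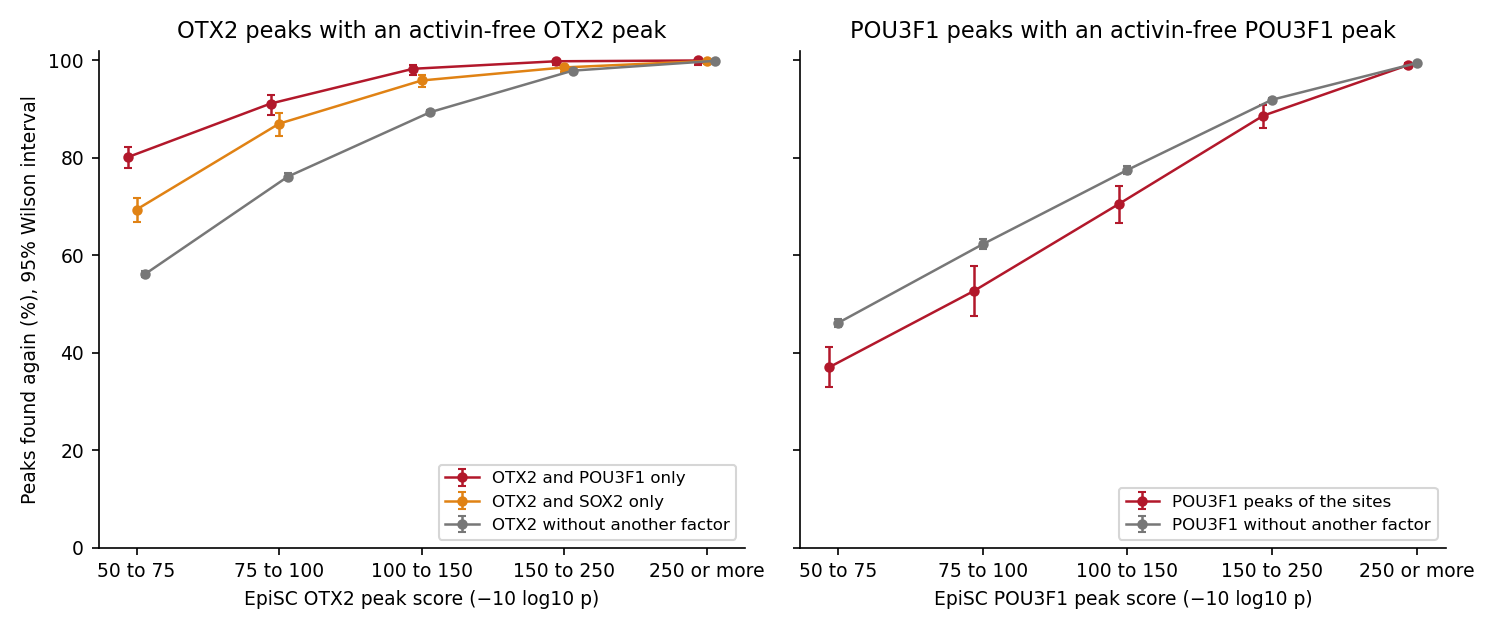
Share of EpiSC peaks that met an activin-free peak of the same TF (y axis, percent, with 95% Wilson intervals) by EpiSC peak score (x axis, minus 10 times log10 p). For OTX2 the sites (red) lie above OTX2 peaks without another TF (gray), at 80.2% and 56.2% in the lowest bin. For POU3F1 the peaks of the sites lie below POU3F1 peaks without another TF, at 37.1% and 46.1%.

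Taking both TFs, 2749 sites (69.7%, 68.3 to 71.1%) had activin-free OTX2 and POU3F1 peaks, against 6.56% of all OTX2 peaks, of which most had no POU3F1 peak in EpiSCs. Of all sites, 836 (21.2%) had OTX2 alone, 278 (7.05%) had POU3F1 alone and 80 (2.03%) had neither. Each loss went with a low score of the TF that was lost. Sites that retained only OTX2 had a median EpiSC POU3F1 score of 89.98 and an OTX2 score of 102.2. Sites that retained only POU3F1 had an OTX2 score of 61.1 and a POU3F1 score of 259. Among sites whose POU3F1 peak was under 700 bp wide, 300 of 697 had an activin-free POU3F1 peak, and 646 of 690 had it where the peak was 2000 bp or wider. The median POU3F1 score of these classes was 65.5 and 944, respectively, and the part of width apart from score was not tested. The share with activin-free OTX2 was between 89.2% and 91.4% in all width classes.

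In the activin-free culture a considerable part of the sites had a peak of POU5F1, the class V POU protein that also binds to octamers. A POU5F1 peak, absent by rule in EpiSCs, met 1190 sites (30.2%, 28.8 to 31.6%), against 8.76% of all OTX2 peaks. The share was 3.05% (2.93 to 3.18%) in OTX2 peaks without another TF and 4.99% (4.42 to 5.64%) in those with SOX2 only. POU3F1 peaks without another TF had a high share as well (35.3%, 34.9 to 35.7%). Counted over the POU3F1 peaks of the sites, it was 38.9% (37.3 to 40.4%). These 2 sets are unlike, since the rule excluded EpiSC POU5F1 only over the OTX2 peak of a site. The rest of its POU3F1 peak may have met POU5F1 in EpiSCs already, which POU3F1 peaks without another TF did not. The activin-free POU5F1 list as a whole was larger, with 126908 peaks against 62457 in EpiSCs. Sites with activin-free POU5F1 had stronger POU3F1 peaks in EpiSCs (median 319, n = 1190) than sites without (186, n = 2753), and similar OTX2 peaks (96.3 and 93.0). With POU3F1 scores of 50 to 75, 17.2% (14.2 to 20.7%) of the POU3F1 peaks of the sites met activin-free POU5F1, and from 250 upwards 56.6% (54.3 to 59.0%) did. Activin-free SOX2 and ZIC2 peaks were found at fewer sites, 300 (7.61%, 6.82 to 8.48%) and 31 (0.786%, 0.554 to 1.11%), respectively, against 10% and 15.8% of all OTX2 peaks. In OTX2 peaks without another TF these shares were 3.66% (3.52 to 3.80%) and 1.504% (1.42 to 1.60%). In total, 1686 sites (42.8%, 41.2 to 44.3%) met the same rule in the activin-free lists, that is OTX2 and POU3F1 without the other TFs, against 2.27% of all OTX2 peaks.

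In their sequence, the sites combined the features of OTX2 and POU3F1 peaks, each at its own midpoint. Motifs were searched on both strands in 200 bp windows, and windows 1000 bp away on each side served as the background. GGATTA was present around the centre of the overlap in 17.2% (16.0 to 18.4%) of the sites and in 8.75% of the background windows. In OTX2 peaks without another TF it was 25.1% (24.8 to 25.4%) over 9.22%, and in POU3F1 peaks without another TF 8.51% (8.31 to 8.72%) over 7.86%. The octamer was found in 5.96% (5.26 to 6.74%) of the sites over 3.22%. The corresponding shares were 2.20% (2.10 to 2.31%) over 2.27% in OTX2 peaks and 7.61% (7.42 to 7.81%) over 3.48% in POU3F1 peaks without another TF. Both values of the sites thus lay between those of the single-TF peaks, whose windows were on the peak midpoint and not on an overlap. The placement of the windows mattered for this order. On the POU3F1 midpoint, the octamer share of the sites was 7.60%, near the 7.61% of POU3F1 peaks without another TF. On the OTX2 midpoint, the GGATTA share of the sites was 22.2%, below the 25.1% of OTX2 peaks without another TF.

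The motifs separated when the windows were placed on the midpoints of the peaks. Around the OTX2 midpoint, 22.2% (20.9 to 23.5%) of 3906 sites had GGATTA and 4.79% (4.16 to 5.50%) the octamer, and around the POU3F1 midpoint 11.3% (10.4 to 12.4%) had GGATTA and 7.60% (6.81 to 8.48%) the octamer. TAATTA, an AT-rich sequence that was the most enriched one in POU3F1 peaks without another TF, occurred around 10.9% (9.97 to 11.9%) of OTX2 midpoints and 20.1% (18.9 to 21.4%) of POU3F1 midpoints. Where the midpoints were over 500 bp apart (1762 sites), GGATTA was at 21.2% (19.3 to 23.1%) of OTX2 and 8.06% (6.88 to 9.42%) of POU3F1 midpoints. Where they were within 100 bp (575 sites), the shares were 21.2% (18.1 to 24.7%) for GGATTA and 8.00% (6.05 to 10.5%) for the octamer at the OTX2 midpoint.

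**Figure D3:**
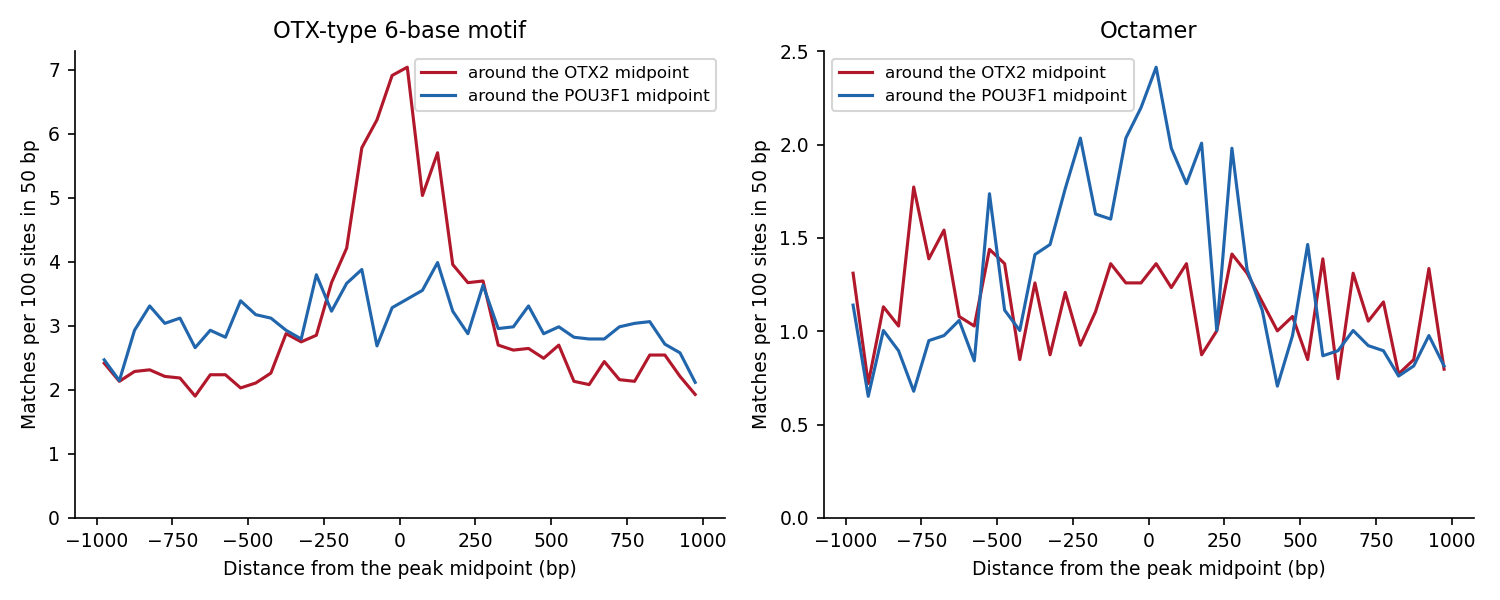
Matches per 100 sites in bins of 50 bp (y axis) by distance from the midpoint of the OTX2 (red) or POU3F1 (blue) peak (x axis, bp), for GGATTA on the left and the octamer on the right. GGATTA peaked at the OTX2 midpoint and the octamer at the POU3F1 midpoint.

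GGATTA and the octamer were together in the window of 38 sites (0.964%, 0.703 to 1.32%), and 3069 sites (77.8%) had neither. In these 38 sites the middles of the closest pair were 12 to 175 bp apart, with a median of 69 bp, and at 4 of them within 20 bp. The pairs shown above vary in the same way, since GGATTA follows the octamers closely in the Magi2 and Macc1 sequences and lies far from the octamer in the Elp4 sequence. The 6-base sequences with the highest ratio over background at the sites were CTAATC (14.8% over 6.49%), ATTAGC (15.3% over 7.48%), AGATTA (25.3% over 12.4%), GGATTA (given above) and AGCTTA (17.8% over 9.09%). All of these except ATTAGC were also among the 5 highest in OTX2 peaks without another TF, while ATTAGC was at 11.7% of those and at 12.8% of POU3F1 peaks without another TF. GGATTA was at 17.1% (15.9 to 18.4%) of the sites with and 17.6% (14.0 to 21.9%) of the sites without an activin-free OTX2 peak. It was at 18.1% (16.8 to 19.6%) of the sites with and 14.0% (11.9 to 16.4%) of those without an activin-free POU3F1 peak.

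The sites lay in AT-rich parts of the genome. The median GC content of the central window was 37.0%, and it was 43.5% in OTX2 peaks without another TF, 40.5% in those with SOX2 only and 32.5% in POU3F1 peaks without another TF. At the same sites it was 39.5% around the OTX2 midpoint and 34.0% around the POU3F1 midpoint. Divided by the GC content of the 1 Mb segment around them, 19.2% (17.9 to 20.6%) of the OTX2 peaks in segments under 38% were sites, and 0.931% (0.847 to 1.02%) of those in segments of 44% or more. Since the rule required a POU3F1 peak, and POU3F1 peaks were AT-rich, this fall is partly set by the choice of sites. The share of POU3F1 peaks by GC content of the segment was not counted. Among chromosomes, the share of OTX2 peaks that were sites was 5.74% (5.16 to 6.39%) on chromosome 3 and 5.72% (4.77 to 6.84%) on X, and 2.03% (1.71 to 2.40%) on chromosome 7 and 2.05% (1.76 to 2.38%) on chromosome 11. This order depended on the denominator, since X had the fewest sites per Mb (0.666) and the fewest sites relative to its POU3F1 peaks (1.42%), and chromosome 11 had 1.36 sites per Mb and 4.70% relative to its POU3F1 peaks.

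Segments of 1 Mb in which POU3F1 peaks covered more than ZIC2 peaks did, each relative to its mean, held 72.4% (70.96 to 73.8%) of the sites. They held 29.8% (29.5 to 30.2%) of OTX2 peaks without another TF and 90.04% (89.8 to 90.3%) of POU3F1 peaks without another TF. Since the rule required a POU3F1 peak and no ZIC2 peak, this is a description and not independent of the choice. The sites were spread widely, as 1581 of 2581 segments had at least 1. At most 13 were in a segment, and 195 segments with at least 5 held 29.7% of the sites. The segments with 13 sites were chr2:73000001-74000000, with Atf2, Chn1 and Sp9, and chr11:86000001-87000000, with Cltc, Med13 and Vmp1.

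Most sites were distant from promoters, as were most peaks of the sets compared. A TSS was within 1 kb of 131 sites (3.32%, 2.81 to 3.93%) and within 50 kb of 64.8% (63.3 to 66.3%). The share within 1 kb was 8.92% (8.74 to 9.09%) in all OTX2 peaks and 4.67% (4.52 to 4.83%) in OTX2 peaks without another TF. In POU3F1 peaks without another TF it was 1.74% (1.64 to 1.84%). The share within 50 kb was 80.1% (79.8 to 80.4%) in OTX2 peaks without another TF and 44.9% (44.5 to 45.3%) in POU3F1 peaks without another TF. The median distance to a TSS was 27.5 kb at the sites, 13.5 kb in the former and 61.0 kb in the latter. An intron of a protein-coding gene contained 2129 sites (54.0%, 52.4 to 55.6%), 1630 (41.3%) lay between genes, and 42 (1.07%) touched coding sequence. The share in introns was 49.8% (49.4 to 50.2%) and 32.9% (32.5 to 33.2%) in OTX2 and POU3F1 peaks without another TF, respectively. In the same order, 44.4% and 63.8% of these peaks lay between genes, and 1.05% and 0.595% touched coding sequence.

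**Figure D4:**
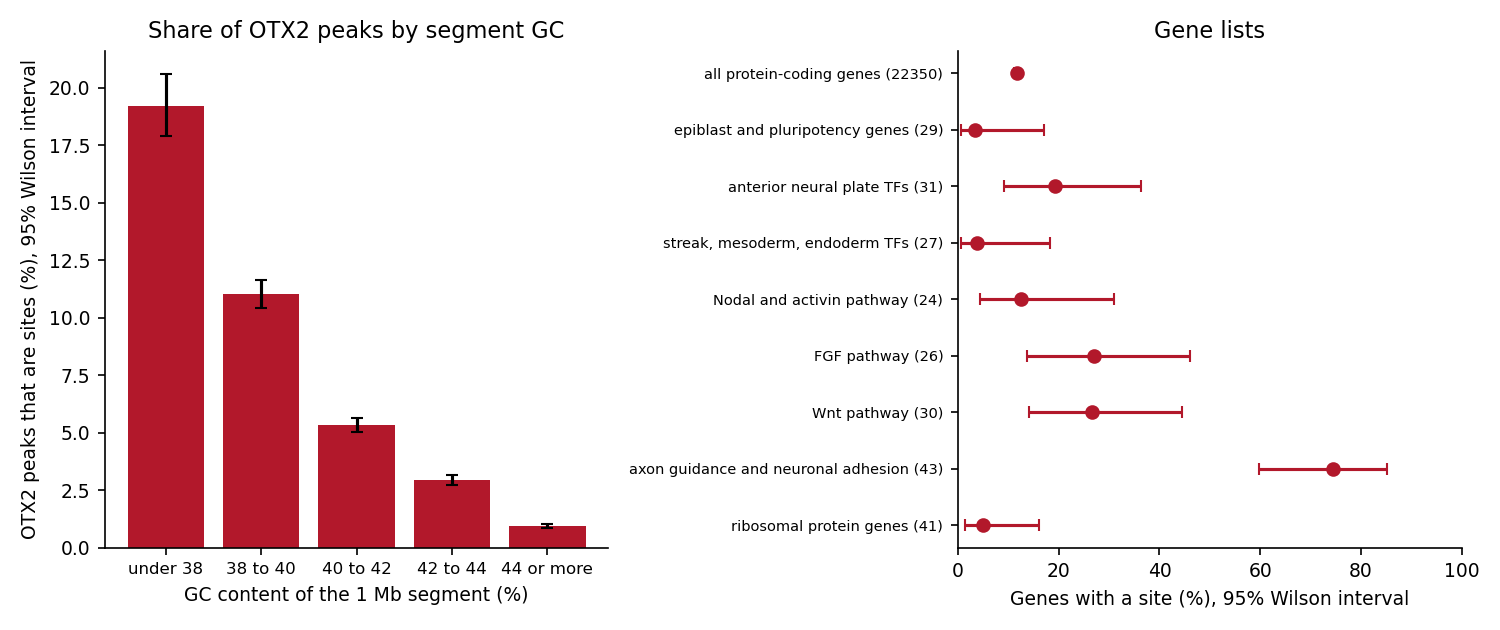
Left, share of OTX2 peaks that were sites (y axis, percent) by GC content of the 1 Mb segment (x axis), decreasing from 19.2% to 0.931%. This fall is partly set by the rule, which required a POU3F1 peak. Right, share of the genes of each list with a site within 50 kb of a TSS or inside the gene (x axis, percent; number of genes in parentheses). Lines are 95% Wilson intervals.

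Genes with the most sites were long genes. Magi2, which encodes a synaptic scaffold protein, had 13 sites along its 1478 kb, and Nrxn3, for a presynaptic adhesion protein, had 12. Pard3b, a relative of the polarity gene Pard3, and Ptprd, for a receptor-type tyrosine phosphatase of synapses, had 11 each. Prkg1, for a cGMP-dependent protein kinase, had 10. Zcchc7 had 9 in only 176 kb. Exoc4, Faf1, Immp2l, Macrod2 and Pde4d had 8 each. Altogether, 2600 of 22350 protein-coding genes (11.6%, 11.2 to 12.1%) had a site in the gene or within 50 kb of a TSS, and the share increased with gene length, from 6.77% of genes under 20 kb to 54.5% (50.3 to 58.7%) of the 528 genes of 300 kb or more.

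Among the gene lists, that of axon guidance and neuronal adhesion had sites in 32 of 43 genes (74.4%, 59.8 to 85.1%). The lists were drawn up with earlier results of these data known, so this share is a description and not independent of them. These genes were long, with a median of 477 kb compared with 15.4 kb for all genes. Of its 32 genes of 300 kb or more, 24 had a site, and the density in gene bodies was 2.76 sites per Mb. It was 2.18 per Mb in all genes of this length, which include those of the list. These densities have no interval, and that of the list includes Nrxn3 and Ptprd, which are among the genes with the most sites. Besides Nrxn3 and Ptprd, Dlg2 had 6 sites, Nlgn1 and Ntng1 had 5, and the axon repellent gene Sema3a had 4. The strongest sites of the list were in introns of Cntnap2 (OTX2 score 260, POU3F1 score 1314), Lrrtm4 (192 and 1396), Cntn4 (179 and 728) and Nlgn1 (266 and 566). All 4 had both activin-free peaks, as had 86.0% of all sites with EpiSC scores of 100 or more. The other lists had fewer genes with sites. FGF pathway genes had sites in 7 of 26 (26.9%, 13.7 to 46.1%) and Wnt pathway genes in 8 of 30 (26.7%, 14.2 to 44.5%), compared with 11.6% of all genes. These genes were also longer than average, with medians of 59.7 kb (FGF) and 43.3 kb (Wnt). Of all genes of 20 to 100 kb, 12.6% had a site, and of those of 100 to 300 kb, 28.7%. The part of length in these shares was not tested. Anterior neural plate TF genes, with a median length of 6.88 kb, had sites in 6 of 31 (19.4%, 9.19 to 36.3%). This interval includes the 11.6% of all genes. Of all genes under 20 kb 6.77% had a site, but the list also holds longer genes, such as Meis1 among those with a site. Sites were found for 3 of 24 Nodal and activin pathway genes (12.5%, 4.34 to 31%) and 2 of 41 ribosomal protein genes (4.88%, 1.35 to 16.1%). They were found for 1 of 27 genes for primitive streak, mesoderm and endoderm TFs (3.70%, 0.657 to 18.3%). Of 29 epiblast and pluripotency genes, 1 had a site (3.45%, 0.611 to 17.2%). Each of these intervals includes the 11.6% of all genes.

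Of the epiblast and pluripotency list, which contained the genes of all 5 TFs, only Jarid2 had a site. The interval of this share, given above, includes the share of all genes, and the median gene length of the list was 11.75 kb. Jarid2, a component of Polycomb repressive complexes, had it in an intron at chr13:44898598-44899546, with an OTX2 score of 117 and a POU3F1 score of 192, and 91.7 and 168 in the activin-free lists. In the neural plate list, Six6, an eye and hypothalamus homeobox gene, had 2 sites, the stronger at chr12:74009703-74010702, over an exon of 4930447C04Rik, with scores of 154 and 1884. Activin-free scores there were 579 for OTX2 and 1641 for POU3F1, and POU5F1 was present with 378. Otx1, the paralog of Otx2, had a site at chr11:21917198-21918176 in an Ehbp1 intron, 14.8 kb from a TSS of Otx1, with scores of 146 and 493 in EpiSCs and 418 and 474 in the activin-free lists. The Barhl2 site, with scores of 82.2 and 172, had neither peak in the activin-free culture. Meis1, Sp8 and Nr2f2 each had 1 site.

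In the signaling lists, Acvr2a, which encodes a receptor for activin, had the most sites, with 7 in or near a gene of 89.2 kb. Only 4 of them were inside the gene. The 1 Mb segment at chr2:48000001-49000000, which also has Mbd5 and Orc4, held 9 sites and 114 POU3F1 peaks. The strongest was at chr2:48786219-48787229 in an intron of the neighboring Orc4, with an OTX2 score of 141 and a POU3F1 score of 1679, and its activin-free scores were 343 and 2188. Another in an Acvr2a intron (chr2:48727027-48727769, scores 94.8 and 272) retained OTX2 (157), lost POU3F1 and had POU5F1 of 270 in the activin-free culture. Inhba had 1 site. In the FGF list, Spred1, for an inhibitor of Ras to MAPK signaling, had 5 sites, and that at chr2:116973358-116976082 had scores of 492 and 1023 in EpiSCs and 1050 and 780 in the activin-free lists. Fgfr2 also had 5, in an annotated span that includes other genes such as Zranb1. Near Lgr5, the R-spondin receptor gene of the Wnt list, 3 sites lay in Zfc3h1, the strongest with scores of 423 and 1142. Gsk3b had 3 sites in the gene.

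The 8 sites that ranked highest in both scores were distributed over 6 chromosomes, and all 8 had both activin-free peaks. They were chosen by score, and 86.0% of all sites with EpiSC scores of 100 or more had both. The first of the 8 was in an intron of the chloride transporter gene Clcn3, 0.628 kb from a TSS, at chr8:63432622-63434458, with scores of 509 and 2417. Its activin-free scores were 447 for OTX2 and 791 for POU3F1, and a SOX2 peak of 110 was present. At chr13:62822584-62825495, 114 kb from the closest protein-coding TSS, scores were 494 and 2339, and 1223 and 3100 in the activin-free lists. In an intron of Rtn4, which encodes the neurite growth inhibitor Nogo, the site at chr11:29619621-29621901 had 492 and 1692, and 1199 and 2553 without activin. The others were in introns of Ano3, Zfp207 and Epc2 and between genes. Those between genes were far from the closest protein-coding TSS, at 547.5 kb from that of Zfp804b and 226.9 kb from that of Epha7.

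A part of the sites proved to be copies of a few repeated sequences. When the central 500 bp of the sites were aligned to each other with BLAST, 524 sites (13.3%) matched at least 1 other site over 100 bp or more. The largest group comprised 71 sites on 19 chromosomes, with OTX2 scores of 51.5 to 669 (median 186) and POU3F1 scores of 54.3 to 891 (median 293). The 300 bp that they have in common, printed above, had 599 copies in the genome with a median identity of 89.4%. These groups were found after the values of the sites had been seen, and no repeat annotation was used to name them. How reads from near-identical copies were placed is not given in the sources used here, so a peak at one copy may contain reads of others.

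Peaks at all copies of this sequence were then counted. As 65 copies lay in a site, and so met OTX2 and none of the excluded TFs at that peak by rule, the EpiSC shares are partly fixed by the choice of sites. In EpiSCs, an OTX2 peak met 215 of 599 copies (35.9%, 32.1 to 39.8%) and a POU3F1 peak 263 (43.9%, 39.98 to 47.9%), and both were present at 159 (26.5%, 23.2 to 30.2%). Peaks of the other TFs were at fewer copies, 7.01% (5.23 to 9.34%) for POU5F1, 3.84% (2.57 to 5.70%) for ZIC2 and 1.84% (1.03 to 3.26%) for SOX2. In the 534 copies outside the sites, OTX2 met 28.1% (24.4 to 32.1%), POU3F1 37.5% (33.5 to 41.6%), both 17.98% (14.95 to 21.5%), POU5F1 7.49% (5.55 to 10.04%), ZIC2 4.31% (2.89 to 6.38%) and SOX2 2.06% (1.15 to 3.65%). In the activin-free culture OTX2 met 303 copies, POU3F1 298 and both 226 (37.7%, 33.9 to 41.7%), and POU5F1 met 116. Most of the peaks were at copies close to the printed sequence, as both TFs met 72 of 155 copies with an identity of 90 to 95% and 66 of 140 with 95% or more, but 9 of 225 with less than 80%. The printed sequence is from a site chosen for aligning to many other sites, so this order is partly fixed by the choice. It was not counted separately for the copies outside the sites. Of the 159 copies with both peaks, 63 were in a site, and at 87 the OTX2 peak also met one of the excluded TFs.

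OTX2 and POU3F1 midpoints mostly lay on opposite sides of the shared sequence. In the 138 copies of 90% identity or more with both peaks, OTX2 midpoints were at −537 bp in median from its middle (quartiles −730 and −362), read along the printed strand, and POU3F1 midpoints at 438 bp (378 and 482). OTX2 midpoints were on the first side in 126 of 138 copies and POU3F1 midpoints on the other in all 138. The shared stretch came from windows centred on the overlap of both peaks, which tends to lie between their midpoints. Midpoints on either side are therefore partly set by that choice, whereas their order along the strand is not. An octamer occurred 600 to 500 bp before the middle in 52.9% (44.6 to 61.0%) of these copies, GGATTA 200 to 300 bp after it in 53.6% (45.3 to 61.7%) and another octamer 600 to 700 bp after it in 81.2% (73.8 to 86.8%). In the 157 copies of the same identity without both peaks, the shares were 19.7% for the first and for GGATTA (14.3 to 26.7% for each) and 62.4% for the last (54.6 to 69.6%). All 3 were present in 35 of the 138 copies (25.4%, 18.8 to 33.2%) and in 6 of the 157 (3.82%, 1.76 to 8.09%). These positions were chosen because most of the 138 copies with both peaks held the motif there. The higher shares in those copies are therefore partly set by the choice. Copies descend from a common sequence and are not independent of each other. The copy at chromosome 10 shown above was a site with an OTX2 score of 669 and a POU3F1 score of 650. With regard to the midpoints, its GGATTA, 257 bp after the middle, was nearer to the median POU3F1 position than to that of OTX2, and its ATGCAAAT, at −533 bp, was on the side of OTX2.

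**Figure D5:**
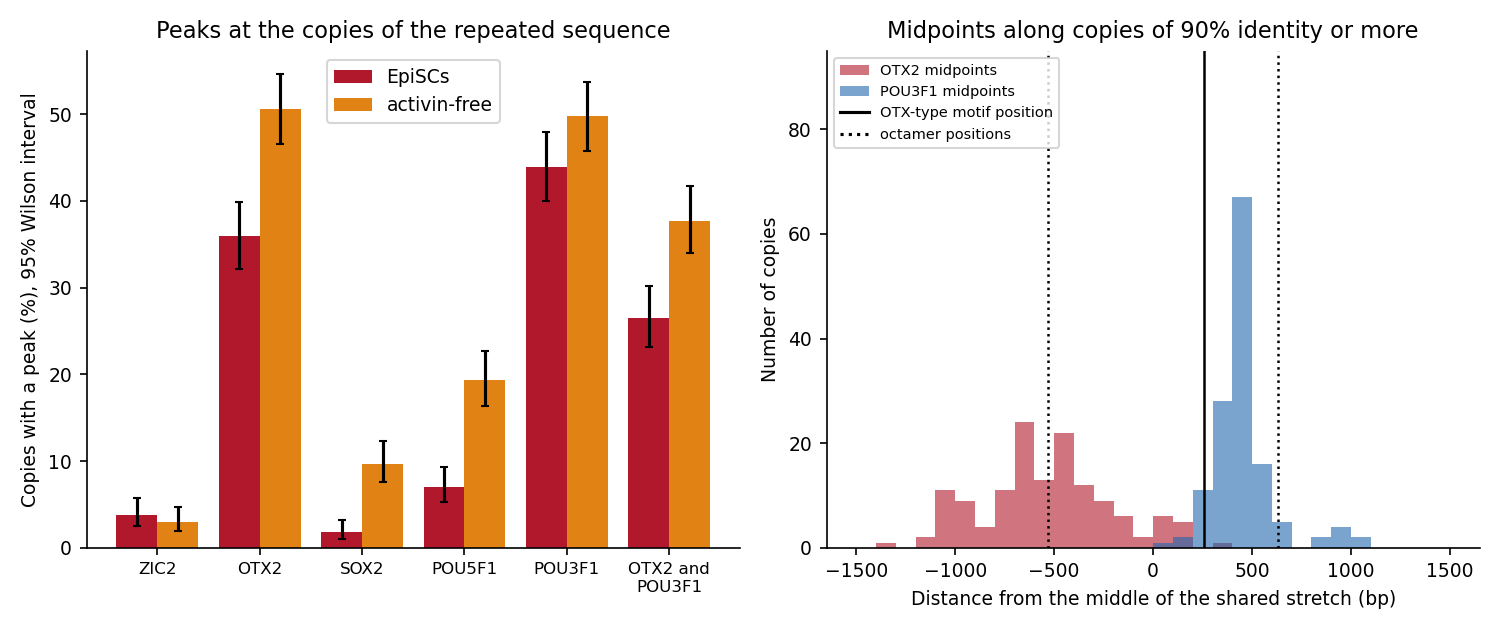
Left, share of the 599 copies of the repeated sequence with a peak of each TF (y axis, percent, with 95% Wilson intervals) in EpiSCs (red) and in the activin-free culture (orange), highest for OTX2 and POU3F1, where 65 copies in a site are included. Right, number of the 138 copies with both peaks and an identity of 90% or more by the position of the OTX2 (red) and POU3F1 (blue) midpoints from the middle of the shared 300 bp (x axis, bp, in bins of 100 bp), with lines at the motif positions of the copy on chromosome 10.

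The other groups described here had fewer sites and lower shares of copies with peaks. The second comprised 62 sites in a sequence of 118 bp with GGATTA, which resembles the B1 short interspersed element and had 181478 copies. Of these, 5.48% (5.37 to 5.58%) met an OTX2 peak, 2.23% (2.16 to 2.30%) a POU3F1 peak and 0.0672% (0.0563 to 0.0803%) both. GGATTA was in 78.7% (70.6 to 85.02%) of its 122 copies with both peaks and in 71.3% (71.1 to 71.5%) of the others. A further group comprised 29 sites and had 733 copies, of which 13.0% (10.7 to 15.6%) met OTX2, 15.7% (13.2 to 18.5%) POU3F1 and 3.96% (2.77 to 5.62%) both. Of the 162 sites in all groups described, 153 had activin-free OTX2 and 137 activin-free POU3F1 (94.4%, 89.8 to 97.1%, and 84.6%, 78.2 to 89.3%, respectively), and outside them the shares were 90.8% (89.8 to 91.7%) and 76.4% (75.1 to 77.8%).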

How the data were processed

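ChIP-seq peak lists of ZIC2, OTX2, SOX2, POU5F1 and POU3F1 were used for EpiSCs and for the activin-free culture, with 1 library per TF and culture. The authors used Bowtie2 for alignment (build mm9) and MACS1.4, with input DNA as control, to call the peaks of each library separately. The deposited score is minus 10 times the log10 of the peak's p-value and is not scaled between lists. The input control was not analysed here, read depth is unknown, and how reads with several genomic matches were placed is not given in the sources used here. Differences between cultures therefore include depth and list length.

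Only peaks on chromosomes 1 to 19 and X were used. Peaks were joined by an overlap of at least 1 bp in Python 3.11.15 with numpy 2.4.6 and scipy 1.17.1. Sequences were read from the mm9 reference (NCBIM37) in windows of 200 bp, with flanks at 1000 bp, and genes and TSSs were from GENCODE vM1. Repeated sequences were aligned with blastn 2.17.0 (at least 100 bp, E-value 1e-10), and a copy covered at least 80% of the shared stretch. Overlap, interval and motif routines were tested on simulated data. No test of significance was made.

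Named sites were the 8 whose lower rank among both scores was best, and the best near genes of 8 fixed lists. Further named sites were the best with both motifs, chosen separately where both or neither of the activin-free peaks were present. Named genes were the 8 with most sites, ties included. Sites, lists and repeat groups were chosen with earlier results of these data known. Alternatives concerned the definition of sites, overlap, score, window, TSS set and segment size. A few named sites and genes are not reported here.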

Additional observations from a re-analysis of the deposited data

How the results depend on the processing

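No paired analysis was possible because each TF had 1 library per culture and no result came from a test. Requiring an overlap of 50% of both peaks left 1465 sites, of which 92.6% had activin-free OTX2, 73.9% POU3F1, 68.3% both and 29.0% an excluded TF, 20.3% had GGATTA, 6.96% the octamer and 69.3% lay in POU3F1-rich segments. With EpiSC scores of 100 or more, 1380 sites remained, and these shares were 99.3%, 86.5%, 86.0% and 42.03% for the activin-free peaks, 70.4% for segments and 67.2% for a TSS within 50 kb. With both peaks under 1000 bp, 1266 sites remained, with 87.4%, 60.7%, 52.3% and 26.8% for the activin-free peaks and 69.0% for segments. Without sites that had an excluded TF within 1000 bp, an activin-free peak of such a TF met 31.6%, compared with 35.7% of all sites. An activin-free overlap of 50% gave 72.6% for OTX2 and 74.1% for POU3F1, so that the order of both reversed, and activin-free scores of 100 or more gave 75.6%, 64.6%, 49.2% for both and 23.5% for an excluded TF. Windows of 50 bp on each side held GGATTA in 9.21% and the octamer in 3.20%, and windows on the OTX2 midpoint in 22.1% and 4.79%. Protein-coding TSSs alone gave 49.4% within 50 kb, whole OTX2 peaks a GC content of 38.1%, and 500 kb segments 75.3% of the sites. Leaving out the 524 sites that resembled another site, an alternative added after seeing the data, moved none of the shares beyond its interval, with 90.7% for OTX2 and 76.1% for POU3F1. The causes of these shifts were not tested beyond the smaller number of sites each definition leaves.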
